A study of Mus musculus with 26 samples.

Results

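The effect of losing Rb in pineoblastoma (PB) that already lacks Dicer1 and p53 was examined by comparing 3 Rb/Dicer1/p53-deleted PBs with 3 Dicer1/p53-deleted PBs. These 6 tumors, of 26 samples in the series, were chosen by their labels alone, as the numbered tumors 1 to 3 of each genotype, and were profiled on the Affymetrix Mouse Gene 2.0 ST array. All 6 arose in mice in which WAP-Cre, a Cre recombinase driven by the whey acidic protein promoter that is also active in the pineal gland, deleted floxed alleles. The Dicer1/p53-deleted PBs came from mice homozygous for floxed Dicer1 (flox/flox) and floxed p53 (flox/flox), and the Rb/Dicer1/p53-deleted PBs from mice that were also homozygous for floxed Rb (flox/flox), so that deletion of Dicer1 and p53 was shared by both groups and only the Rb alleles differed by design. The Dicer1 allele has loxP sites around the part that encodes the second RNase III domain. The mice were of mixed genetic background, their ages and sexes are not in the labels, and no normal tissue was measured on this array version. The labels do not say whether tumors came from separate litters, and the p-values measure the spread between these numbered tumors. A single Rb/p53-deleted tumor, PB 12, was measured on the same array version and is given beside the 2 groups without a test.

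PB is an aggressive tumor of the pineal gland, the organ that makes melatonin at night and whose cells share a photoreceptor program with the retina. RB, the product of Rb1, is a pocket protein that holds E2F transcription factors in check until cyclin-dependent kinases phosphorylate it in G1, after which E2F drives genes for DNA replication and the S phase. DICER1 cuts precursor hairpins into mature microRNAs, and germline mutations in RB1 or DICER1 predispose children to PB. The comparison asks how the tumor transcriptome differs when the RB brake is removed on top of Dicer1 and p53 loss.

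Values were log2 signals per transcript cluster, a group of probes designed against one locus, normalized by robust multi-array averaging (RMA). A difference of 1 is thus a 2-fold difference in signal, and every difference below is Rb/Dicer1/p53-deleted minus Dicer1/p53-deleted. The array medians were close, between 5.26 and 5.36, but Dicer1/p53-deleted 3 had a narrower interquartile range of 2.55 against 2.78 to 2.84 on the other 5 arrays. The genotypes were not separated by their overall profiles. Pearson correlations were 0.961 to 0.975 among the Dicer1/p53-deleted arrays, 0.966 to 0.982 among the Rb/Dicer1/p53-deleted arrays and 0.959 to 0.98 between the groups. Xist, the noncoding RNA of the inactive X chromosome, and the Y-linked genes Uty, Kdm5d and Eif2s3y varied from tumor to tumor. Xist was 11.80, 11.44 and 10.29 in Dicer1/p53-deleted 1, 2 and 3 and 11.34, 6.41 and 10.01 in Rb/Dicer1/p53-deleted 1, 2 and 3. Uty was 3.07, 3.45 and 10.44 in the first group and 3.13, 8.68 and 4.16 in the second. Dicer1/p53-deleted 3 was therefore high for both Xist and Uty, a combination seen on no other of the 6 arrays, and results that rest on it are also given without it. Its cause was not tested.

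No gene separated the genotypes after correction for the number of genes. Of 22180 named genes, 0 (0%) reached an adjusted p below 0.05 in limma, the smallest adjusted p being 0.364, and 1943 (8.76%) had an unadjusted p below 0.05, of which 1112 (5.01%) were higher and 831 (3.75%) lower with Rb deletion. The median difference over all genes was -0.02. A more direct description is whether the groups overlap. All 3 Rb/Dicer1/p53-deleted values lay above all 3 Dicer1/p53-deleted values for 1635 genes (7.37%) and below all 3 for 1645 genes (7.42%), and these shares are the background against which the gene groups below are read. With values centred on each chromosome the split was 1058 above and 2320 below. This centring also removed an offset common to the genes of an array, so the centred values below do not reflect chromosomes alone. The difference of the gene Cdk2, for example, went from 0.96 to 0.87, although chromosome 10 had group means of only 0.0019 and 0.013. Every gene-level difference that follows therefore failed the correction, and the values describe these 6 tumors.

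The targeted transcript was lower with Rb deletion but was still detected. Rb1 was 9.52, 9.97 and 9.61 in Dicer1/p53-deleted PBs and 8.79, 8.54 and 8.30 in Rb/Dicer1/p53-deleted PBs. The groups did not overlap, and the difference was -1.16 (SE 0.20, 95% confidence interval -1.61 to -0.70, limma adjusted p = 0.372). The Rb/p53-deleted PB 12 had 9.07, between the groups. A second, dimmer Rb1 cluster went the opposite way, at 4.89, 5.15 and 4.72 in Dicer1/p53-deleted PBs and 6.16, 5.37 and 5.73 in Rb/Dicer1/p53-deleted PBs, with 5.72 in PB 12. Its difference was 0.83 (limma adjusted p = 0.498 over all clusters), and when both Rb1 clusters were averaged the difference shrank to -0.16. Dicer1, whose deletion both groups carry, was 7.75, 8.03 and 7.95 in Dicer1/p53-deleted PBs and 8.28, 7.88 and 7.81 in Rb/Dicer1/p53-deleted PBs. Its groups overlapped, with a difference of 0.08 (SE 0.18). Probes outside a deleted segment do not report on the deletion, so the Dicer1 cluster is no check of that allele. The p53 gene was not analysed here, as no cluster of the annotation used carried its symbol alone.

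Among the other pocket proteins and the E2F factors, a few members separated the groups and most did not. Of 13 measured members including Rb1, 3 lay above in all Rb/Dicer1/p53-deleted PBs (E2f4, E2f7 and Tfdp1) and 3 below (Rb1, E2f3 and E2f6). E2f7, an atypical E2F that represses cell cycle genes and is itself a target of E2F, was 6.59, 7.66 and 7.24 without and 8.36, 8.0 and 7.67 with Rb deletion. The highest Dicer1/p53-deleted tumor came close to the lowest Rb/Dicer1/p53-deleted one, and the difference was 0.85 (SE 0.30, limma adjusted p = 0.51). Tfdp1, the dimerization partner of E2F proteins, was 9.54, 9.80 and 9.73 against 10.35, 10.06 and 10.03, a difference of 0.45 (SE 0.16, limma adjusted p = 0.524). The activator E2f1, which is also on the list of E2F targets below, was 7.79, 7.74 and 8.20 against 7.95, 8.43 and 8.16, with overlap. E2f2 was 6.58, 7.36 and 7.19 against 7.08, 7.09 and 7.46, also with overlap. The activator E2f3 was slightly lower with Rb deletion, at 6.51 to 6.74 against 6.75 to 7.01. Differences were 0.35 for E2f4, -0.36 for E2f6, -0.27 for E2f5 and 0.25 for E2f8. They rested in part on single tumors. Without Rb/Dicer1/p53-deleted 1 they were 0.21 for E2f4, -0.22 for E2f6 and -0.04 for E2f5, and without Rb/Dicer1/p53-deleted 3 that of E2f8 was 0.02. The difference of E2f7 was 0.56 and that of Rbl1 0.12 without Dicer1/p53-deleted 1. The RB relatives Rbl1 (p107) and Rbl2 (p130) had differences of 0.34 (SE 0.23) and 0.15 (SE 0.19), and Tfdp2 of 0.22 (SE 0.22). E2f4, Rbl2 and Tfdp1 lie on chromosome 8, whose genes were high on 1 array, as described with the chromosomes. With values centred on each chromosome the difference was 0.07 for E2f4 and 0.17 for Tfdp1, and that of E2f3, on chromosome 13, was -0.13. The median of the 13 members was then 0.05, against 0.22 with the values as deposited. The array-wide offset of that centring is part of these changes.

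**Figure D1:**
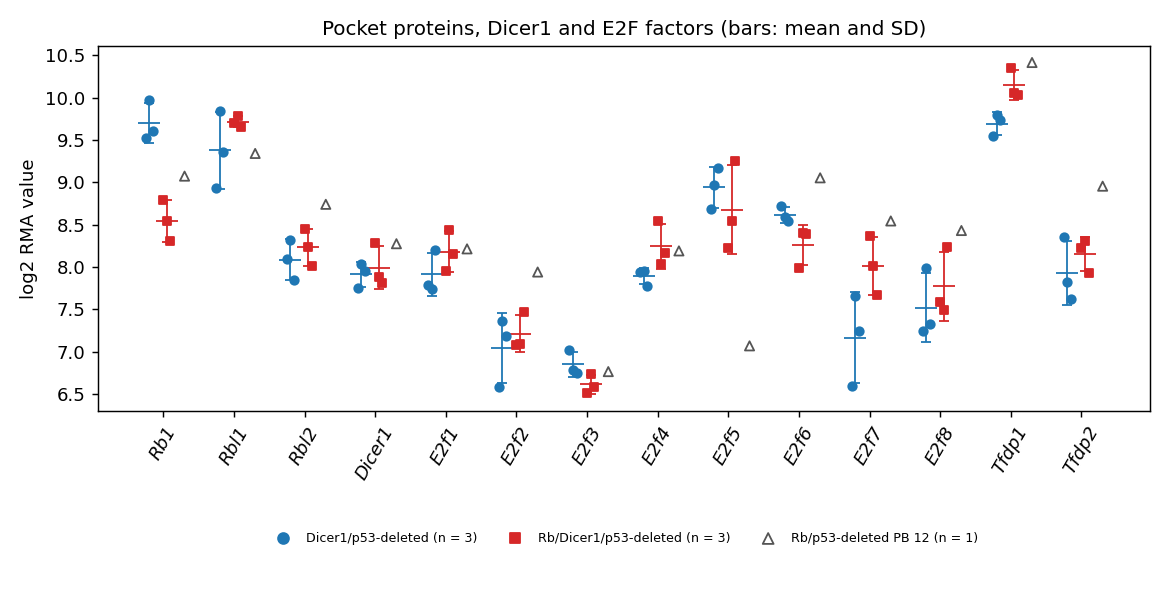
Log2 RMA value (vertical axis) of Rb1, its relatives, Dicer1 and the E2F and DP factors in each tumor, with the group mean and SD as bars. The 3 Rb/Dicer1/p53-deleted values of Rb1 (8.30 to 8.79) sit below the 3 Dicer1/p53-deleted values (9.52 to 9.97), and most E2F genes overlap.

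The genes that E2F is known to drive were next compared. E2F sites close to the start site are a feature of these genes that the comparison did not use. The promoters of 4 listed genes whose groups did not overlap are therefore shown as examples. Only genes with a match to the E2F motif were eligible, and they were taken in order of unadjusted p. Genes with a smaller p but no match were passed over. Dnmt1 had 3 promoter windows and Mcm7 had 2, and a single window of each is shown. Each window shown held 2 matches, but the presence of a match was a condition of the choice and not a result. Each is 300 bases on the gene's strand, from 250 bases before to 50 after the RefSeq start in GRCm38.p6, printed 5′ to 3′, and capitals mark matches to the E2F motif. They are Dnmt1 at chr9:20952574-20952873 (minus strand), Mcm7 at chr5:138171834-138172133 (minus strand), Mcm5 at chr8:75109259-75109558 (plus strand) and Rfc3 at chr5:151651159-151651458 (minus strand).
Dnmt1: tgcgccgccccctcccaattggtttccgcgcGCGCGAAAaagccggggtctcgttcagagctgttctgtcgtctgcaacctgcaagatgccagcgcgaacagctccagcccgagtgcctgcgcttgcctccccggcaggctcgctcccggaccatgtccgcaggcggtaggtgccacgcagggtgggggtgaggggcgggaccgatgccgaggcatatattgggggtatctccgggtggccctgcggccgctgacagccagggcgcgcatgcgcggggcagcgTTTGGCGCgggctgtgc
Mcm7: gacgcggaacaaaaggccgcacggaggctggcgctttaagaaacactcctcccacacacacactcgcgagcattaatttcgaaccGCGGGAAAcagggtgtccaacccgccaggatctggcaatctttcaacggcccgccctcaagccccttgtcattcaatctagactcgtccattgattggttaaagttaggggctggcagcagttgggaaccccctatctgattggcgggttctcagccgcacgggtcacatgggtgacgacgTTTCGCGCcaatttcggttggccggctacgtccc
Mcm5: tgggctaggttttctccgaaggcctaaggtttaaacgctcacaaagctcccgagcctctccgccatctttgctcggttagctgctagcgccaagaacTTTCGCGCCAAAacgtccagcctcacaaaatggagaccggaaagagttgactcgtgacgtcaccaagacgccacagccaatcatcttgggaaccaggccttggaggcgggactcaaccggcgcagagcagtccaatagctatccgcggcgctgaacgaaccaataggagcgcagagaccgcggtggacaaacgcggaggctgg
Rfc3: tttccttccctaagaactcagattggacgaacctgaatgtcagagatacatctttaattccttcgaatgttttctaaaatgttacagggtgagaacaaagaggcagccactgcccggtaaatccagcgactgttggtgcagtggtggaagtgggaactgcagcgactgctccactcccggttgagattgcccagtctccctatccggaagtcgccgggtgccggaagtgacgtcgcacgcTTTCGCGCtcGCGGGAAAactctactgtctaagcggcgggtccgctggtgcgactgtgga

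The motif was any of TTTCCCGC, TTTCGCGC, TTTGCCGC and TTTGGCGC on either strand. In Mcm5 a match on each strand overlaps to form one run of capitals, and in the other 3 the matches are apart. Of all 20611 promoter windows of 16990 tested genes, 588 (2.85%) held a match. Of the 46 windows of 38 E2F target and replication genes, 18 (39.1%) did. The share did not follow the expression pattern within the list, at 8 of 21 windows (38.1%) for genes whose groups did not overlap and 10 of 25 (40%) for the rest. For mitotic genes it was 1 of 27 windows, and for photoreceptor genes 0 of 40. A match describes letters in the window and not a bound site.

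E2F target and DNA replication genes were mostly higher in Rb/Dicer1/p53-deleted PBs by small amounts. Of 45 measured, 40 had a positive difference, 19 (42.2%) lay above in all 3 tumors against a background of 7.37%, and 0 lay below. The median difference was 0.33 and the range -0.35 to 0.99, with 17 genes at an unadjusted p below 0.05, all higher, and a smallest limma adjusted p of 0.439. The median value over the list was 7.90, 8.27 and 8.16 in Dicer1/p53-deleted 1, 2 and 3 and 8.28, 8.43 and 8.45 in Rb/Dicer1/p53-deleted 1, 2 and 3. The groups only just did not overlap on this measure, and PB 12, which also lacks Rb, was higher than all 6 at 8.96. Without Dicer1/p53-deleted 3, 21 of the 45 lay above and 2 below, against backgrounds of 12.2% and 13.2%. The median was 0.22 with chromosome-centred values or without Dicer1/p53-deleted 1. Part of the change with centring was its array-wide offset. Listed fibroblast, meningeal and matrix markers were mostly lower in the same tumors (list medians 5.60 to 5.87 against 6.11 to 7.21), and their part in this difference was not tested. In bulk tumor RNA, a larger share of cycling cells and more RNA per cell cannot be told apart.

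Minichromosome maintenance genes, which encode the replicative helicase, were among those without overlap. Mcm4 was 8.77, 8.73 and 8.57 without and 9.41, 9.46 and 9.74 with Rb deletion, a difference of 0.85 (SE 0.16, limma adjusted p = 0.439), and PB 12 had 9.74. Mcm7 was 8.72, 8.95 and 9.12 against 9.62, 9.68 and 9.53, and Mcm5 was 9.33, 9.37 and 9.56 against 10.09, 10.12 and 9.87. All 3 tumors with Rb deletion were above all 3 without it for each of these genes. Dnmt1, which copies DNA methylation after replication, was 8.86, 8.82 and 8.59 against 9.32, 9.44 and 9.54, a difference of 0.68 (SE 0.16). The clamp loader subunits Rfc2 and Rfc3 differed by 0.83 (SE 0.20) and 0.47 (SE 0.15). The thymidylate synthase gene Tyms was 7.30, 7.68 and 7.18 against 8.23, 7.99 and 8.09. Chaf1b, of the chromatin assembly factor that deposits histones behind the fork, differed by 0.85 (SE 0.29), while Pcna, the sliding clamp, differed by only 0.23 (SE 0.15) although its groups did not overlap. Several of these differences were smaller with chromosome-centred values, at 0.45 for Mcm4, 0.44 for Mcm7, 0.33 for Mcm5, 0.42 for Dnmt1, 0.23 for Rfc3, 0.47 for Tyms and 0.45 for Chaf1b. Part of each change was the array-wide offset and not the chromosome.

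**Figure D2:**
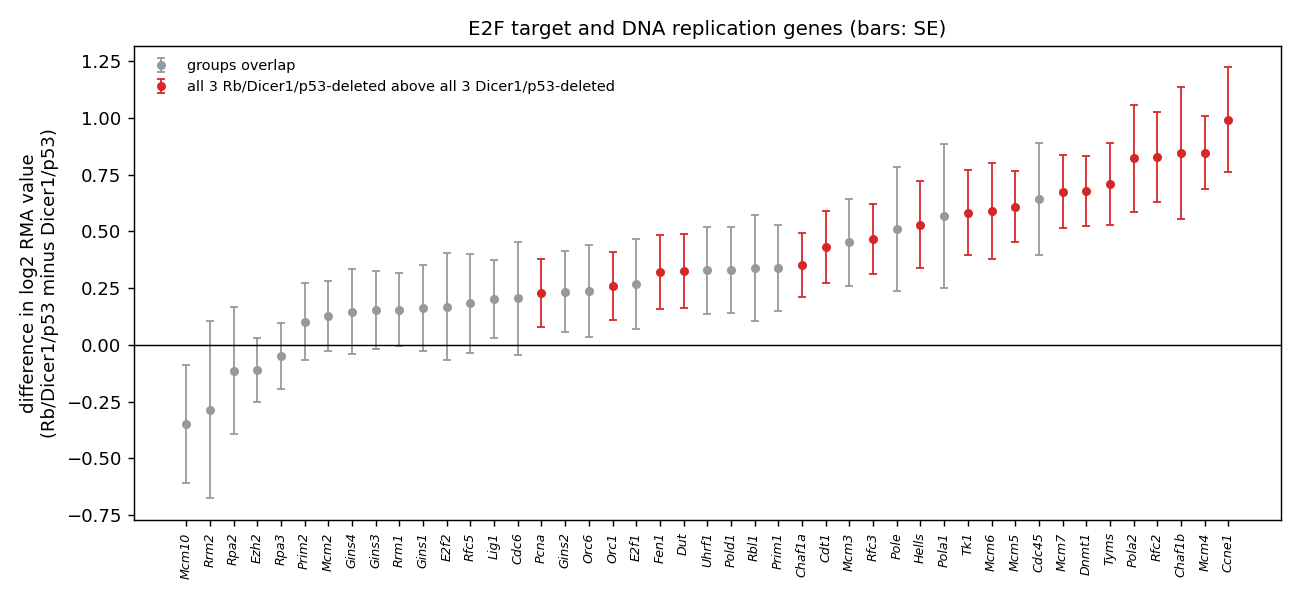
Difference in log2 RMA value (vertical axis, bars are the SE) for each of the 45 measured E2F target and DNA replication genes, ordered by size. The 19 genes whose groups do not overlap, in red, all lie above 0, and 40 of the 45 points are positive.

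The G1 genes that act on RB went with this pattern in part, although Ccne1 is also on the E2F target list. Of 8 measured G1 cyclins and kinases, Cdk2, Ccne1 and Cdc25a lay above in all Rb/Dicer1/p53-deleted PBs, none lay below, and the median difference was 0.16. Cdk2, the kinase that pairs with cyclin E, was 8.56, 9.05 and 8.71 against 9.64, 9.68 and 9.90, a difference of 0.96 (SE 0.18, limma adjusted p = 0.439). Ccne1, which encodes cyclin E1 and is an E2F target, was 6.64, 6.63 and 6.87 against 8.07, 7.23 and 7.82, a difference of 0.99 (SE 0.23). Both groups were tight for Cdk2, and the Rb-deleted tumors were more spread for Ccne1. The phosphatase gene Cdc25a differed by 0.73 (SE 0.20), and by 0.47 with chromosome-centred values. The D-type cyclin gene Ccnd3, upstream of RB, was 8.80, 8.13 and 8.70 against 7.32, 8.38 and 8.44, with overlap, and was 6.05 in PB 12.

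Inhibitors of cyclin-dependent kinases were higher as well. Of 8 measured, 7 had a positive difference, and the median was 0.64. Cdkn2b, Cdkn2c and Cdkn1b lay above in all Rb/Dicer1/p53-deleted PBs and 0 lay below. Cdkn2c (p18), which inhibits CDK4 and CDK6, was 7.07, 6.47 and 7.31 against 7.97, 7.66 and 7.85, a difference of 0.88 (SE 0.24, limma adjusted p = 0.455), with 9.0 in PB 12. The groups were apart for Cdkn2b (p15), at a difference of 0.44 (SE 0.17), and for Cdkn1b (p27), at 0.28 (SE 0.14). Cdkn2a, the locus of p16 and p19ARF, was 8.25, 7.37 and 8.68 against 9.17, 8.65 and 8.99, and Dicer1/p53-deleted 3 overlapped. Cdkn1c (p57) was 6.15, 5.01 and 6.89 against 7.67, 6.56 and 7.44, with the same tumor overlapping. Without Dicer1/p53-deleted 3, 5 of the 8 (62.5%) lay above both remaining tumors, against a background of 12.2%. The p53 target Cdkn1a (p21) was 7.96, 8.94 and 7.87 against 10.83, 9.73 and 8.24, so that 2 of the 3 Rb-deleted tumors were above every Dicer1/p53-deleted tumor.

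Mitotic genes had smaller differences, and their share was closer to the background. Of 29 measured, 5 lay above (Ccnb2, Cdc20, Kif11, Kif23 and Prc1, 17.2% against a background of 7.37%) and Mad2l1, a spindle checkpoint gene, lay below with a difference of -0.40 (SE 0.18). The median difference was 0.20, and it was 0.08 without Dicer1/p53-deleted 1 and 0.09 without Rb/Dicer1/p53-deleted 3. Cyclin B2 (Ccnb2) was 9.61, 9.48 and 9.46 against 9.88, 10.13 and 10.41, a difference of 0.62 (SE 0.18) that was 0.37 with chromosome-centred values. Cdc20, the activator of the anaphase-promoting complex, was 8.72, 8.52 and 8.89 against 9.05, 9.40 and 9.70, a difference of 0.67 (SE 0.21). The proliferation marker Mki67 overlapped, at 10.71, 11.20 and 11.05 against 11.10, 11.04 and 11.29.

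Most p53 target genes overlapped between the groups, in both of which p53 was deleted. Of 18 measured, 14 overlapped, 4 lay above (22.2%, against a background of 7.37%) and 0 below. The median difference was 0.13, with 0.04 without Rb/Dicer1/p53-deleted 2. The 4 were Mdm2, Gtse1, Zmat3 and Tnfrsf10b. Without Dicer1/p53-deleted 3, 4 (22.2%) lay above and 3 (16.7%) below, against backgrounds of 12.2% and 13.2%. Mdm2, which encodes the ubiquitin ligase of p53, was 7.16, 7.56 and 7.10 against 7.59, 8.05 and 7.94, the lowest Rb-deleted tumor being just above the highest other. Tnfrsf10b, a TRAIL death receptor, was 6.35, 6.21 and 5.94 against 7.04, 6.63 and 7.38, a difference of 0.85 (SE 0.22). Casp8, the initiator caspase that death receptors recruit, had groups that lay far apart, at 7.52, 7.16 and 7.09 against 8.59, 8.72 and 9.17. Its difference was 1.57 (SE 0.21, limma adjusted p = 0.364), it ranged from 1.40 to 1.70 under the alternatives tried, and PB 12 had 8.52. Mlkl, which executes necroptosis, was 5.71, 5.54 and 5.02 against 7.98, 6.01 and 6.66. It lies on chromosome 8, whose genes were high in Rb/Dicer1/p53-deleted 1, the tumor with the highest value, and the Mlkl difference of 1.46 was 0.91 without that tumor. Bik, a BH3-only member of the BCL2 family, differed by 0.86 (SE 0.26), and Bad was the only other of 15 family members to lie above, with 0 below and a family median of -0.02. Casp8 and Mlkl were named after their values were seen.

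Transcription factors of the pineal lineage had high values in both genotypes. Crx, the homeobox factor of photoreceptors and pinealocytes, was 10.47, 10.03 and 10.42 in Dicer1/p53-deleted PBs and 10.24, 10.82 and 10.34 in Rb/Dicer1/p53-deleted PBs. Otx2, which acts above Crx, was 10.33, 10.60 and 9.81 against 9.71, 10.24 and 10.26. Both overlapped, with differences of 0.16 (SE 0.21) and -0.18 (SE 0.25). The serotonin pathway genes varied more between tumors of a genotype than between genotypes. Tph1, tryptophan hydroxylase, was 9.88, 7.98 and 8.95 against 7.08, 10.13 and 9.73, and Ddc, aromatic amino acid decarboxylase, was 8.72, 9.69 and 7.83 against 6.80, 10.13 and 10.63. Rb/Dicer1/p53-deleted 1 was the lowest of the 6 for both. Over 19 measured pineal genes the median difference was -0.15, and its sign was not stable, at 0.02 without Dicer1/p53-deleted 1 and 0.0035 without Rb/Dicer1/p53-deleted 1.

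The exception was Gch1, GTP cyclohydrolase 1, which makes the tetrahydrobiopterin that tryptophan hydroxylase needs. Gch1 was 8.47, 7.90 and 6.98 in Dicer1/p53-deleted PBs and 4.32, 4.73 and 5.17 in Rb/Dicer1/p53-deleted PBs. The groups were separated by more than the spread within either, the difference was -3.04 (SE 0.38, 95% confidence interval -3.93 to -2.15, limma adjusted p = 0.364), and PB 12, at 4.93, was among the Rb-deleted values. It was the only pineal gene of the 19 whose groups did not overlap, and its difference stayed between -3.44 and -2.70 under the alternatives tried. Chrna3, a nicotinic acetylcholine receptor subunit abundant in the pineal gland, was 10.53, 10.77 and 8.83 against 6.02, 9.23 and 8.14, with overlap, and was 11.01 in PB 12.

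Most photoreceptor genes had a negative difference, but few separated the groups, and the size rested on single tumors. Of 47 measured, 38 had a negative difference, 5 (10.6%) lay below in all 3 tumors, near the background of 7.42%, and 0 lay above. Differences ranged from -2.63 to 0.73. The median difference was -0.37. It was -0.15 without Dicer1/p53-deleted 1 and -0.18 without Rb/Dicer1/p53-deleted 1. Without Dicer1/p53-deleted 3, 17 of the 47 (36.2%) lay below, against a background of 13.2%. Sag, retinal arrestin, was 8.92, 9.04 and 7.90 against 4.73, 7.02 and 6.22, a difference of -2.63 (SE 0.57, limma adjusted p = 0.439), with 6.59 in PB 12. Pdc, phosducin, was 7.03, 6.56 and 4.87 against 3.86, 5.02 and 4.67, so that Dicer1/p53-deleted 3 overlapped the Rb-deleted tumors. The calcium-binding protein gene Cabp5 was 8.58, 9.15 and 7.71 against 6.33, 8.34 and 6.20, with overlap. Rbp3, the interphotoreceptor retinoid-binding protein gene, was high in every tumor, at 11.86, 11.44 and 11.23 against 11.01, 11.16 and 11.23. Guca1a, guanylate cyclase activating protein, was 7.44 in Dicer1/p53-deleted 1 and between 4.56 and 5.14 in the other 5 tumors. The remaining genes that lay below were Unc119 and Gnat1. Grk1, rhodopsin kinase, was 9.35, 9.28 and 8.52 against 8.03, 8.59 and 8.33, overlapping through Dicer1/p53-deleted 3. The lower stromal markers described with the other cell types accompany these values as well.

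Most neuronal and neuroendocrine markers overlapped between the groups. Of 20 measured, 17 overlapped, Scg3 and Stmn2 lay below and Ncam1 lay above, with a median difference of -0.14. Scg3, secretogranin III of dense-core vesicles, was 8.14, 8.65 and 6.03 against 5.25, 5.84 and 4.45, a difference of -2.43 (SE 0.66, limma adjusted p = 0.455). Among genes outside that list, the vesicle protein gene Syt4 was 7.78, 7.34 and 5.86 against 4.15, 5.42 and 4.54, and the adhesion molecule gene Nrcam was 9.10, 9.38 and 7.67 against 5.94, 7.28 and 5.89. The mean of the 3 Syt4 clusters differed by -1.25, against -2.29 for the brightest. In each of these, Dicer1/p53-deleted 3 was the lowest of its group and still above the Rb-deleted tumors. The neuropeptide gene Nts was 8.40 in Dicer1/p53-deleted 2, 5.33 and 5.86 in the other two and 3.68, 4.62 and 3.92 with Rb deletion. Ncam1, the neural cell adhesion molecule, was 8.94, 8.88 and 8.25 against 10.28, 9.32 and 9.45. Without Dicer1/p53-deleted 3, 8 of the 20 (40%) lay below and 1 (5%) above, against backgrounds of 13.2% and 12.2%. Syt4, Nrcam and Nts were named after their values were seen.

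**Figure D3:**
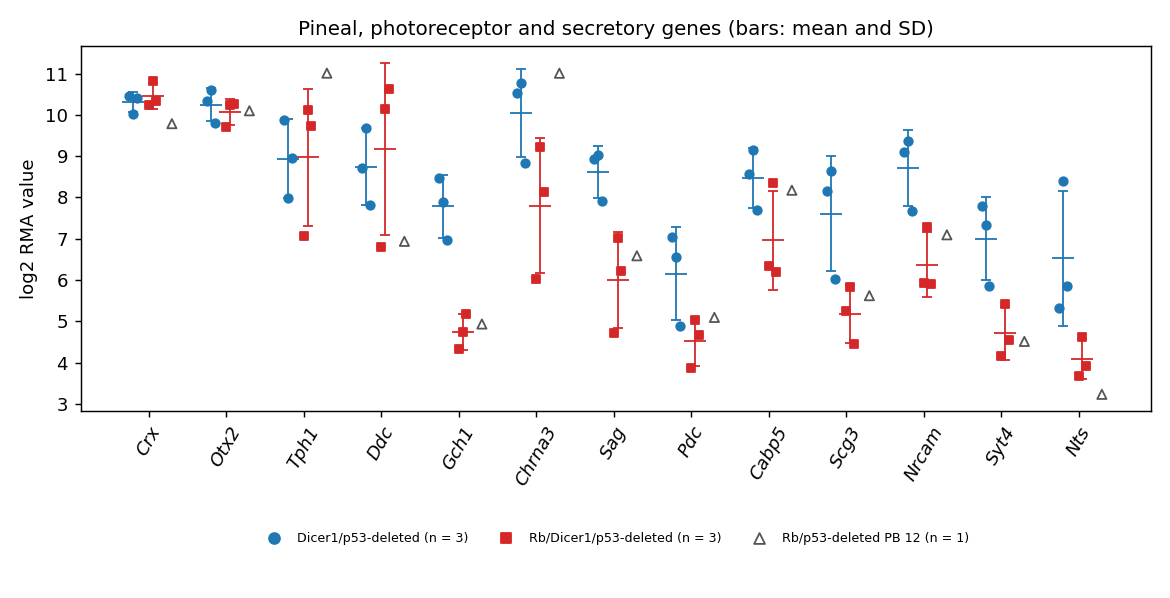
Log2 RMA value (vertical axis) of pineal, photoreceptor and secretory genes in each tumor, with the group mean and SD as bars. Crx and Otx2 overlap between genotypes, whereas all Rb/Dicer1/p53-deleted values of Gch1 (4.32 to 5.17) lie below all Dicer1/p53-deleted values (6.98 to 8.47).

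The protocadherin beta genes, a cluster of neighbouring genes on chromosome 18 whose products give neurons a surface identity, were lower as a group. Of 22 measured, 21 had a negative difference, 12 (54.5%) lay below in all 3 Rb-deleted tumors and 0 above, and the median difference was -0.91. This family was picked after its values were seen, and possible sharing of probes among its members was not tested. Pcdhb6 was 8.48, 8.78 and 8.06 against 4.89, 6.85 and 5.62, a difference of -2.65 (SE 0.46, limma adjusted p = 0.374). Pcdhb14 was 8.28, 7.69 and 8.35 against 4.48, 5.69 and 7.41, so that Rb/Dicer1/p53-deleted 3 kept most of the signal. Pcdhb11 was 7.67, 8.42 and 7.93 against 6.08, 6.61 and 6.64, and Pcdhb8 was 6.89, 7.32 and 6.60 against 5.11, 5.77 and 5.27. The single member without a negative difference was Pcdhb22, at 0.13 (SE 0.28). The list median was -0.75 with chromosome-centred values and between -1.08 and -0.71 when single tumors were left out. In PB 12 the median over the family was 5.18, against a range of 5.94 to 6.07 without Rb deletion and of 4.50 to 5.24 with it.

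Small nucleolar RNAs (snoRNAs), which guide the modification of ribosomal RNA, were mostly lower in Rb/Dicer1/p53-deleted PBs. Of 73 measured, 70 had a negative difference, 38 (52.1%) lay below and 1 (Snora35) above, 46 had an unadjusted p below 0.05 in the lower direction, and the median difference was -0.90. The list median was 9.25, 9.06 and 9.77 in Dicer1/p53-deleted PBs and 9.12, 8.34 and 7.91 in Rb/Dicer1/p53-deleted PBs, so that Rb/Dicer1/p53-deleted 1 was within the range of the other group. PB 12, which lacks Rb and keeps Dicer1, was at 9.65, among the Dicer1/p53-deleted tumors. Without Dicer1/p53-deleted 3 the count below was again 38, but against a background of 13.2% instead of 7.42%, and the median was -0.76. It was -0.66 without Rb/Dicer1/p53-deleted 3. Snora7a was 7.19, 7.32 and 7.25 against 6.28, 6.25 and 5.96, a difference of -1.09 (SE 0.16, limma adjusted p = 0.364), and PB 12 had 7.55. Snord99 was 11.49, 11.28 and 11.85 against 10.58, 10.51 and 10.09, and Snord19 was 7.64, 7.33 and 7.59 against 6.86, 6.61 and 6.49.

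The largest negative difference among the genes named here was in a snoRNA outside that list. Gm26504, the RefSeq entry for the Snord116 repeats of the imprinted Snrpn region on chromosome 7, was 11.56, 9.62 and 10.62 against 6.31, 8.23 and 6.25, a difference of -3.67 (SE 0.63, limma adjusted p = 0.374). Its 15 clusters held the same values and count as 1 measurement. Snhg14, the long host transcript of that region, had the same order within the Rb-deleted tumors, at 9.40, 8.36 and 8.71 against 6.21, 8.50 and 6.14. Rb/Dicer1/p53-deleted 2 was high for both and overlapped the other group for Snhg14. Rn7sk, an abundant small RNA that is not a snoRNA, differed by only -0.10 (SE 0.14). Gm26504, Snhg14 and Rn7sk were named after their values were seen.

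Among ribosomal protein genes, lower values were more common than higher ones. Of 60 measured, 16 (26.7%) lay below and 4 above (Rps15, Rpl21, Rpl34 and Rpl39), with a median difference of -0.18. Rpl38 was 10.29, 10.27 and 10.26 against 9.50, 9.96 and 9.57, and Rps20 differed by -0.82 (SE 0.23). A second Rps20 cluster differed by only -0.05, and the mean of both by -0.43. The ribosomal median was -0.10 without Rb/Dicer1/p53-deleted 1. Of 29 replication-dependent histone genes, whose messages end without a poly(A) tail, 3 (10.3%, near the background of 7.42%) lay below (H1f2, H1f3 and H2bc18) and H1f5 above, and the median difference was -0.44. These messages are made in S phase. H1f2 was 10.24, 10.31 and 10.23 against 9.69, 9.24 and 9.37, a difference of -0.83 (SE 0.17), and H1f3 was 7.18, 6.93 and 7.40 against 6.58, 6.64 and 6.24. The histone median was -0.26 without Dicer1/p53-deleted 3. RNA quality was not analysed here. Of 483 microRNA gene transcripts, 21 (4.35%) lay above and 38 (7.87%) below, near the background.

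Fibroblast, meningeal and matrix markers were mostly lower with Rb deletion, and markers of other cells are given beside them. Of 17 fibroblast, meningeal and matrix markers, 15 had a negative difference and Col1a2, Col3a1, Col6a1 and Col6a2 lay below in all Rb-deleted tumors (23.5%), with 0 above and a median difference of -0.52. The list median was 6.56, 7.21 and 6.11 in Dicer1/p53-deleted PBs and 5.77, 5.87 and 5.60 in Rb/Dicer1/p53-deleted PBs, without overlap. Without Dicer1/p53-deleted 3, 13 of the 17 lay below (76.5%, background 13.2%) and the median was -0.88. Col1a2, of fibrillar collagen I, was 8.14, 7.51 and 6.56 against 6.06, 6.23 and 5.72, a difference of -1.40 (SE 0.37). Col3a1, of collagen III, was 7.57, 7.99 and 6.78 against 6.25, 6.61 and 5.86. Dcn, decorin, was 7.77, 8.37 and 4.92 against 3.82, 6.32 and 4.04. The largest rise in the list was 0.97. Over all 44 collagen genes the split was even, with 22 positive and 22 negative, 4 above, 6 below and a median of -0.0049. Most of the 17 listed markers, but not the collagens as a family, were thus lower with Rb deletion. This went alongside the higher replication genes and the mostly negative photoreceptor differences, and its part in them was not tested. Endothelial and pericyte markers had 3 of 16 below (Rgs5, Cldn5 and Slco1a4) and 0 above, with a median of -0.22, or -0.10 without Dicer1/p53-deleted 2. Microglia and macrophage markers had 1 of 21 (Itgam) below and 0 above, with a median of -0.16 whose sign was not stable, at 0.12 without Dicer1/p53-deleted 2 and 0.0062 without Rb/Dicer1/p53-deleted 3. T, NK and B cell markers had 3 of 19 (15.8%) below (Gzmb, Prf1 and Cd79b) against a background of 7.42%, at dim list medians of 4.39 to 4.80. The 1105 olfactory receptor genes, dim on every array, leaned the same way, with 105 (9.5%) below, 17 (1.54%) above and a median of -0.14. Their list median was 3.44 in Dicer1/p53-deleted 3 and 2.94 to 3.04 on the other arrays. Small negative medians of dim lists are to be read beside this lean, whose cause was not tested.

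Antigen presentation genes overlapped for the most part. Of 12 MHC class I presentation genes, 2 (Tapbp and Tap2) lay above and 0 below, and the median difference of 0.13 turned to -0.06 without Dicer1/p53-deleted 3. Tapbp, tapasin, was 8.05, 8.50 and 7.55 against 8.85, 8.75 and 9.35. The peptide transporter gene Tap1 was 6.07, 6.50 and 5.91 against 6.44, 6.84 and 7.24, with slight overlap. Of 8 MHC class II genes, H2-Ab1 lay below and H2-DMb1 above (difference 0.29), and 6 overlapped. H2-Ab1 was 7.68, 9.53 and 7.18 against 6.45, 6.98 and 6.60, with Dicer1/p53-deleted 2 highest. Its difference of -1.46 was -0.76 without that tumor. The interferon-induced gene Ifitm3 was also highest in that tumor, at 6.97, 8.21 and 6.50 against 5.52, 5.88 and 6.25.

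Hedgehog pathway genes lay above more often than the background, and WNT pathway genes were near it. Of 13 hedgehog pathway genes, Boc, Cdon, Gli2 and Sufu lay above (30.8%, against a background of 7.37%) and Ihh below. The median difference was 0.19, and it was 0.09 without Rb/Dicer1/p53-deleted 1. Without Dicer1/p53-deleted 3, 6 of the 13 (46.2%) lay above and 1 (7.69%) below, against backgrounds of 12.2% and 13.2%. Boc, a hedgehog co-receptor, was 6.14, 5.88 and 5.49 against 7.08, 6.56 and 7.13, a difference of 1.09 (SE 0.23, limma adjusted p = 0.439), but PB 12 had 5.44, and the difference was 0.69 with chromosome-centred values. Gli2, a hedgehog transcription factor, was 7.49, 7.27 and 7.54 against 7.92, 8.29 and 8.02. Of 21 WNT pathway genes, 2 lay above (Lrp5 and Ctnnb1) and 2 below (Sfrp2 and Wif1), near the background. The WNT antagonist gene Sfrp2 was 6.19, 6.23 and 5.68 against 4.70, 4.75 and 4.66, a difference of -1.33 (SE 0.19, limma adjusted p = 0.364). A second Sfrp2 cluster differed by -0.21, and the mean of both by -0.77. The WNT co-receptor gene Lrp5 was 6.22, 5.98 and 5.92 against 7.05, 6.87 and 7.02. Tcf7l2, a transcription factor of the same pathway, was 6.07, 5.61 and 6.21 against 7.47, 6.96 and 7.29. Tcf7l2 was listed with the forebrain and midbrain neuron markers and is not in the WNT counts. For the Sfrp2 cluster used and for Lrp5 and Tcf7l2, each group was narrow and the groups were apart. Id1, which blocks differentiation factors and is a BMP target, was 6.09, 6.16 and 6.22 against 7.36, 7.16 and 7.28, a difference of 1.11 (SE 0.14, limma adjusted p = 0.364), with 6.65 in PB 12. Bmp5, a BMP ligand gene, was 8.90, 5.59 and 7.21 against 4.56, 4.57 and 4.33. Id1 and Bmp5 were outside the hedgehog and WNT lists and were named after their values were seen.

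Single progenitor, glial and granule neuron genes went both ways, while most members of their lists had a negative difference. This held for 11 of 16 early retinal and neural progenitor genes, 9 of 14 astrocyte markers and 12 of 15 granule neuron markers. In that order, 6.25%, 14.3% and 13.3% lay above and 12.5%, 7.14% and 20% below. The backgrounds were 7.37% and 7.42%. Sox9, a factor of neural progenitors and astrocytes, was 7.88, 7.76 and 7.21 against 8.74, 8.07 and 8.56. Fabp7, a marker of radial glia, went the other way at 8.47, 8.68 and 7.84 against 7.20, 7.46 and 5.95. Aldh1l1, an astrocyte enzyme, differed by 1.09 (SE 0.26), and Aqp4, the astrocyte water channel, by -1.12 (SE 0.28). Zic1, expressed in granule neuron precursors and dorsal brain, was 7.02, 8.28 and 8.25 against 8.72, 9.41 and 9.48, while Kcnd2, a potassium channel of granule neurons, was 6.53, 6.56 and 4.91 against 4.66, 4.57 and 4.34.

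Splicing factors differed by small amounts. Of 28 measured, 7 (25%, against a background of 7.37%) lay above and Nova1 and Rbfox1 lay below, with a median difference of 0.09. Without Dicer1/p53-deleted 3, 12 (42.9%) lay above and 2 (7.14%) below, against backgrounds of 12.2% and 13.2%. Nova1, a neuronal splicing factor, was 8.04, 8.93 and 8.50 against 8.02, 7.26 and 7.60. Brca2, of homologous recombination, was 6.84, 6.94 and 7.24 against 7.81, 7.54 and 7.40, with 8.72 in PB 12. Plagl1, an imprinted growth gene, differed by 0.94 (SE 0.34), or 0.60 without Rb/Dicer1/p53-deleted 1, and Mxi1, a MYC antagonist gene, by 0.61 (SE 0.21), or 0.29 with chromosome-centred values. Of 33 oxidative phosphorylation genes 6 (18.2%, against a background of 7.42%) lay below and 0 above, with a median difference of -0.09. Without Dicer1/p53-deleted 3, 11 of the 33 (33.3%) lay below, against a background of 13.2%, and 0 above. With all arrays, 0 of 11 genes of the microRNA machinery lay either way.

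**Figure D4:**
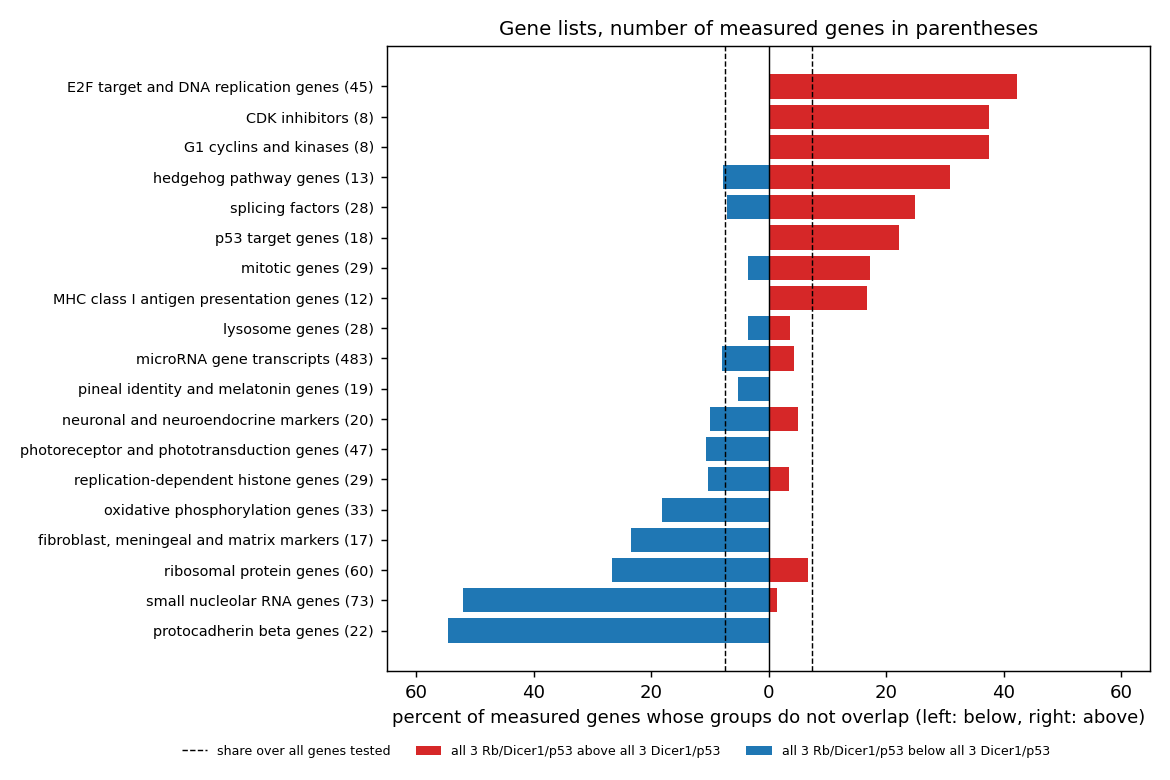
Percent of the measured genes of each list (number in parentheses) whose 3 Rb/Dicer1/p53-deleted values all lie above (red, right) or all below (blue, left) the 3 Dicer1/p53-deleted values, with dashed lines at the share over all genes (7.37% above, 7.42% below). Cell cycle lists extend to the right, at 42.2% for the E2F targets, and the snoRNA and protocadherin beta lists to the left, at 52.1% and 54.5%.

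Outside these lists, the genes with the widest differences and no overlap were of varied function, and they were named after their values were seen. Neat1, the noncoding RNA that builds paraspeckles, was 8.25, 8.05 and 8.42 against 9.51, 10.30 and 9.97, a difference of 1.69 (SE 0.23, limma adjusted p = 0.364), while PB 12 had 8.26. Zfp185, whose product binds actin, was 7.54, 6.31 and 6.54 against 8.78, 8.93 and 9.70, and lies on the X chromosome, which was high in Rb/Dicer1/p53-deleted 3. Chrnb1, a muscle-type acetylcholine receptor subunit gene, was 6.18, 5.67 and 5.47 against 7.19, 7.21 and 8.66. For all 3 genes the Rb-deleted tumors were separate from the rest. The chemokine receptor gene Ccr3 was 5.22, 4.56 and 4.37 against 7.42, 6.62 and 5.78. Scd1, stearoyl-CoA desaturase, was 9.15, 7.47 and 8.19 against 9.26, 10.01 and 10.22, so that 1 tumor of each group nearly met. Differences were 1.65 for Pdlim3, 1.64 for St14, 1.62 for Jhy and 1.62 for Gbgt1, and that of St14 was 0.97 without Dicer1/p53-deleted 2. Man1a, a Golgi mannosidase gene, was 9.51, 7.31 and 5.99 against 4.67, 5.41 and 4.37. For Neat1, Chrnb1, Ccr3 and Jhy, PB 12 was close to or below the Dicer1/p53-deleted tumors rather than among the Rb-deleted ones, and for Gch1, Scg3 and Casp8 it was close to the Rb-deleted ones.

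On 3 of the arrays the genes of whole chromosomes deviated together. Each protein-coding gene with a mean above 6 was centred on its mean over the 6 arrays, and the median over a chromosome was taken on each array. In Rb/Dicer1/p53-deleted 1 the 529 genes of chromosome 8 had a median of 0.41. In Rb/Dicer1/p53-deleted 3 the 351 genes of chromosome 13 had -0.46, the 286 of chromosome 16 had 0.40 and the 278 of the X chromosome had 0.61. In Dicer1/p53-deleted 3 the X chromosome had -0.31. No other chromosome on any of the 6 arrays reached 0.3 in size. The Rb-deleted tumors thus shared no such shift. With all protein-coding genes, dim ones included, the same 5 medians were 0.25, -0.24, 0.23, 0.15 and -0.09, none of which reached 0.3 in size, so the calls depend on leaving out dim genes. DNA was not measured, and these shifts bear on every named gene of those chromosomes, for which chromosome-centred values were computed as an alternative chosen after the data were seen. The arrays were not set to a common median before that centring, so its values also carry an array-wide offset.

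**Figure D5:**
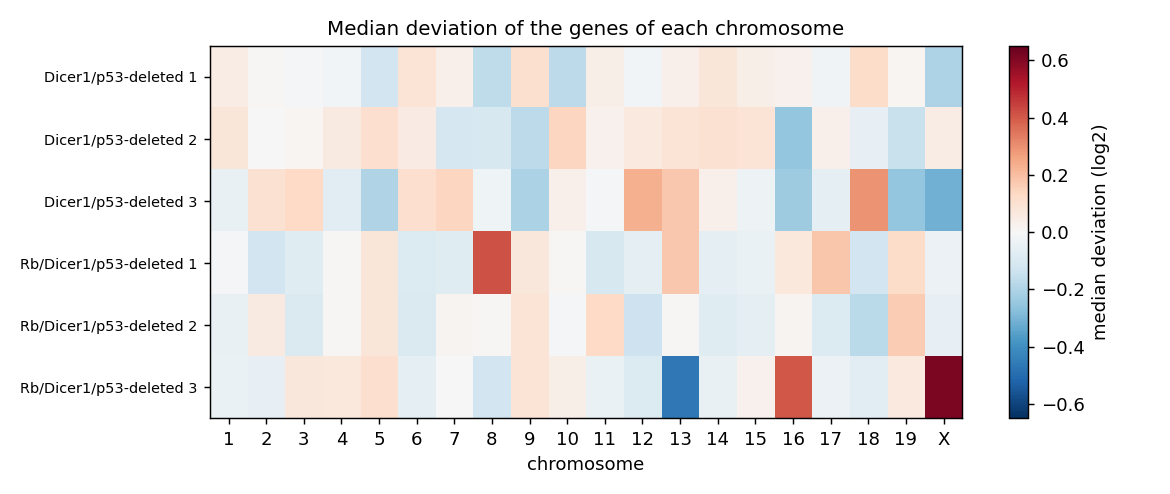
Median deviation (log2, colour scale) of the protein-coding genes with a mean above 6 of each chromosome (horizontal axis) on each of the 6 arrays. Rb/Dicer1/p53-deleted 1 stands out on chromosome 8 (0.41) and Rb/Dicer1/p53-deleted 3 on chromosomes 13 (-0.46), 16 (0.40) and X (0.61), and with dim genes included no median reached 0.3 in size.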

How the data were processed

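RNA from mouse pineoblastomas was hybridized to Mouse Gene 2.0 ST arrays. Per the labels, the deposited values are log2 signals per transcript cluster made by the authors with RMA in Affymetrix Expression Console. Its version and the set of arrays that entered 1 normalization are not given in the sources used here, and the number of arrays limits the precision. The 41345 clusters were named from the platform annotation (23521 carried 1 symbol, 1820 several and 16004 none), and symbols of 23328 were updated by gene ID to RefSeq GRCm38.p6. For the 1082 genes with several clusters the brightest was kept, leaving 22180 genes.

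Groups came from the sample titles, 3 arrays each. They were compared with limma 3.58.1 (lmFit and eBayes, R 4.3.3) on the values as deposited, with Benjamini-Hochberg adjustment over all genes and a threshold of 0.05. The fit was also run on simulated independent values, which lack the array and chromosome shifts of these data. Gene lists are described by counts and medians without a set test. Genes named were the targeted genes, the pocket and E2F family and, since none passed, those with the smallest p of each list, with further genes picked after their values were seen. Members and lists were chosen with earlier results of these data known. Promoters were RefSeq windows of 300 bases. Arrays of another version were not used here. Alternatives were quantile normalization, a filter on genes below the median mean, other cluster rules, array weights, a trended prior, a replicate block, chromosome centring and leaving out each array.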

Additional observations from a re-analysis of the deposited data

How the results depend on the processing

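The count of genes past an adjusted p of 0.05 was 0 under all 15 alternatives, including a false discovery rate of 0.01, each array left out and all 41345 clusters, and the smallest adjusted p ranged from 0.119 (without Dicer1/p53-deleted 3) to 0.779 (without Rb/Dicer1/p53-deleted 3). Genes at an unadjusted p below 0.05, 1943 with all arrays, numbered 1198 with the filter on dim genes, 3498 over all clusters and 1294 to 1960 with 1 array left out, the lowest without Rb/Dicer1/p53-deleted 3. Genes with all 3 above all 3, 1635 with the values as deposited, numbered 2836 over all clusters and 1058 with chromosome-centred values, and those with all 3 below, 1645, numbered 3181 over all clusters and 625 with the filter on dim genes. Of 1532 differences of named genes recomputed, 1517 kept their direction. Much of this count was fixed in advance and does not measure stability. The replicate block, the trended prior, all clusters and the filter on dim genes leave a gene's difference as it was. A gene whose groups do not overlap cannot change direction with 1 array left out. With chromosome-centred values, which were added after the data were seen, Rbl2 had -0.13 and Tfdp2 -0.031. Leaving out single arrays gave differences of -0.066 to 0.17 for Dicer1, -0.063 to 0.33 for E2f2, -0.096 to 0.39 for Pcdhb22, -0.017 to 0.28 for Crx, -0.40 to 0.0035 for Otx2, -0.54 to 0.99 for Tph1 and -0.28 to 1.64 for Ddc, and none of these genes separated the groups. Of 464 list medians, 18 moved by more than the spread between tumors. The chromosome medians of 0.41, -0.46, 0.40, 0.61 and -0.31 were 0.25, -0.24, 0.23, 0.15 and -0.09 when all protein-coding genes were used.

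The groups share the replicate numbers 1 to 3, but the numbers did not pair the tumors: deviations of same-numbered arrays correlated at -0.165, 0.027 and -0.139, each over all genes. With the replicate number as a block, 0 genes were called and 1566 had an unadjusted p below 0.05.

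With 3 tumors a group, differences that fail the correction are not shown to be absent. Signals near the array background limit the dim families.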
